A study of Mus musculus with 8 samples.

Results

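The 10 genes H2afz, H2afv, H2afx, H2afy, H2afy2, H3f3a, H3f3b, H1f0, H1fx and Cenpa encode replication-independent histone variants. They were chosen by symbol, spelled as in the files, from 38991 gene identifiers. All 10 were detected in every library and all 10 passed the filter for testing, which asked for an average of 1 FPKM or more in iPHet or in iPKO. FPKM counts the fragments of a gene per length and per library, so levels of different genes can be set side by side on that scale.

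Histones made only in S phase come from clustered genes whose mRNAs end in a stem-loop instead of a poly(A) tail. The variants can also be made outside S phase, mostly from spliced and polyadenylated mRNAs, and replace the canonical histones at particular places. H2A.Z marks promoters, H3.3 is laid down outside replication, CENP-A defines the centromere, H2AX is phosphorylated at DNA breaks, macroH2A is linked to repressed chromatin, and the linker histones H1.0 and H1.X bind between nucleosomes. In mouse embryonic stem cells H2A.Z and H3.3 are known for their place at developmental genes.

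The series compared RNA from cultured embryonic stem cells of the mouse: a control genotype, iPHet, and cells in which the arginine methyltransferase gene Prmt5 was knocked out, iPKO. There were 4 libraries of each genotype. All cells were male, of C57BL/6 background, from blastocysts of embryonic day 3.5, below passage 20 and kept in 2i medium, which holds them in the ground state. The lines were derived on feeder fibroblasts with PD0325901 at 0.5 µM and LIF. Every culture, control included, received 4-OHT at 2 µM for 48 hours and then fresh 2i medium. By its name iPHet is a heterozygote, which would leave the control with 1 working copy. The labels name 1 line per genotype, PC1 for iPHet and PC4 for iPKO, as those used for most experiments, so genotype and line cannot be told apart. Whether replicate libraries stem from separate cultures is not stated. The p-values therefore describe only the spread among the libraries at hand, and that spread may be technical.

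Prmt5 itself was 4.66-fold lower in iPKO, at 13.4 ± 1.56 FPKM against 62.5 ± 10.4 FPKM in iPHet (SD, n = 4 each), with no overlap. Summed FPKM was 458856 in iPHet 1 and 458690 in iPHet 3, and 411827 to 421412 in the other libraries. The part of this gap in genotype differences from libraries 1 and 3 was not tested. No counts were given from which depth could be read. Libraries 1 and 3 of a genotype, and likewise libraries 2 and 4, lay close to one another. The SD of their log2 differences was 0.164 to 0.176 over 8141 protein-coding genes, against 0.375 to 0.415 for the other pairs of a genotype. Results are therefore also given within the odd-numbered and within the even-numbered libraries. All 10 pluripotency markers were tested and 1, Sox2, was called lower, with a summed level of 2318 to 3819 FPKM in iPHet and 2748 to 3001 in iPKO. Of 7 feeder fibroblast markers, 6 were below 1 FPKM in every library and Postn and Lum were at 0 in all 8 libraries, with sums of 1.34 to 2.44 and 0.977 to 1.77 FPKM. Neural markers summed to 10.2 to 11.9 FPKM in iPHet and 6.02 to 8.13 in iPKO, with Nes and Map2 of 6 called lower. Sox1, the other neural marker tested, went the other way, uncalled, at 0.896 to 1.275 FPKM in iPHet and 1.368 to 2.056 in iPKO. Endoderm markers summed to 4.11 to 4.83 and 2.67 to 4.08 FPKM, mesoderm markers to 6.40 to 10.3 and 10.04 to 15.3, and trophoblast markers to 1.31 to 3.41 and 2.17 to 7.15. The mesoderm sums were mostly Eomes, at 5.93 to 9.45 FPKM in iPHet and 9.74 to 14.85 in iPKO. The other 4 mesoderm markers were below 1 FPKM in every library. Krt7 made up most of the trophoblast sums of the odd-numbered libraries, with 1.88 and 2.05 FPKM in iPHet and 4.82 and 4.12 in iPKO. The part of these marker differences in the differences of the histone variant genes was not tested.

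The 3′ ends of the 10 genes were searched first, because they bear on which histone mRNAs a library can hold. The stem-loop was searched on the transcript strand as GGNNCT, a loop of TTT and any base, and the reverse complement of the first stem. It was found in 1 of the 10 genes, H2afx, against 38 of 57 replication-dependent histone genes (66.7%) and 49 of 21901 protein-coding genes (0.224%) in GENCODE M21. The 57 are those of 67 such genes that have an annotated protein-coding transcript. Only exact matches within annotated transcripts were counted, so a varied element or a shorter annotated end counts as none. The H2afx match lies in the 3′ untranslated region of its only exon, 46 bases after the stop codon and 822 bases before the annotated transcript end. It is shown with those of Hist1h2ao and Hist1h4i, replication-dependent genes described further on, in build mm10. Capitals mark the stem-loop, to which the coordinates belong, and 5 bases follow on each side.
H2afx, chr9:44335240-44335255, plus strand: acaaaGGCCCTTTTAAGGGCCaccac
Hist1h2ao, chr13:21810898-21810913, plus strand: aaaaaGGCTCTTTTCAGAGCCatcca
Hist1h4i, chr13:22040966-22040981, minus strand: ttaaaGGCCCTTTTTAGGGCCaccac

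H2afx thus holds the element of the replication-dependent class and also a poly(A) signal near its annotated end. AATAAA or ATTAAA, on the transcript strand in the last 50 bases of at least 1 coding transcript, was found in 9 of the 10 genes, all but H2afy. The share was 15 of 57 replication-dependent histone genes (26.3%) and 17058 of 21901 protein-coding genes (77.9%). The Hist1h2ao match lies 38 bases after the stop codon and 31 bases before the transcript end. That of Hist1h4i lies 30 bases after the stop codon and 330 bases before the end.

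Promoters of 300 bases, ending 50 bases after the gene start in RefSeq (GRCm38.p6), were taken from there, which held 9 of the 10 genes. RefSeq starts can differ from the gene spans given further on. The Cenpa window runs to 30666935, where that span starts at 30666777. The H3f3b, H3f3a, H2afy and H2afy2 windows lie inside the spans of their genes. The search covered CCAAT, the box bound by NF-Y, TTTGAA, a core of the CHR element of cell cycle genes, and TTGGCGC, an E2F-type site, all on both strands. CCAAT was in 6 of 9 promoters (37.4% of 32851 promoters), TTTGAA in 2, H2afv and Cenpa (17.9%), and TTGGCGC in 3, H2afz, H2afy2 and H1fx (2.45%). TTGGCGC and CCAAT can overlap, as GCGCCAAT on the opposite strand. Such matches are a description of these windows. The promoter of Cenpa, whose mRNA fell, and those of the 2 H2A.Z genes, whose values are set side by side further on, are shown with the matches in capitals.
Cenpa, chr5:30666636-30666935, plus strand: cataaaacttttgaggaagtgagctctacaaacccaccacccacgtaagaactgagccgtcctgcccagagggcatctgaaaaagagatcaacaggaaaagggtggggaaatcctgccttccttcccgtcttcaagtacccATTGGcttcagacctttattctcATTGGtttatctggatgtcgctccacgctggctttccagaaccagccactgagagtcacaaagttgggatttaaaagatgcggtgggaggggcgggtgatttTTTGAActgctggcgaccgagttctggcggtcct
H2afz, chr3:137864237-137864536, plus strand: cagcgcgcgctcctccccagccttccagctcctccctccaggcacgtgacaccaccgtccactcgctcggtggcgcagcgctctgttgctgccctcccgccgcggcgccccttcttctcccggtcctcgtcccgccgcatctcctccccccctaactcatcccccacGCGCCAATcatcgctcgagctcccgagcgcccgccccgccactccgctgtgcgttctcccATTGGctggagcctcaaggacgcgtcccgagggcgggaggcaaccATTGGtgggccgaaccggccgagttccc
H2afv, chr11:6444394-6444693, minus strand: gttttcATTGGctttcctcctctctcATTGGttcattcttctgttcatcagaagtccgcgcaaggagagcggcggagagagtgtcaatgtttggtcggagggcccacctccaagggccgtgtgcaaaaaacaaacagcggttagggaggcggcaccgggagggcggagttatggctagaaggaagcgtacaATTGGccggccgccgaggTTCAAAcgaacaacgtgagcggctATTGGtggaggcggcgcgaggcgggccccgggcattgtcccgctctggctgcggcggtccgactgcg

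These promoters hold 2 CCAAT and 1 TTTGAA in Cenpa, 3 CCAAT and 1 TTGGCGC in H2afz, and 4 CCAAT and 1 TTTGAA in H2afv. The GC content of the Cenpa window was 50.7%, near the 52.7% median of all promoters. It was 71.3% in H2afz and 60.7% in H2afv.

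Levels of the 10 genes spanned more than 100-fold. In iPHet the order by mean FPKM was H2afz (945), H3f3a (557), H3f3b (189), H2afv (127), H2afx (119), H2afy (82.6), Cenpa (61.2), H1f0 (24.6), H1fx (6.90) and H2afy2 (5.50). Neighbours whose libraries overlapped were H2afv with H2afx and H1fx with H2afy2. In iPKO the order was the same except that H2afy2 stood above H1fx, and the overlapping neighbours were H2afz with H3f3a and H2afy2 with H1fx. The 10 genes together summed to 2119 ± 146 FPKM (SD, n = 4) in iPHet and 1798 ± 196 in iPKO, with overlapping ranges of 1945 to 2241 and 1560 to 2033. This was 0.379 to 0.532% of all FPKM in a library.

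**Figure D1:**
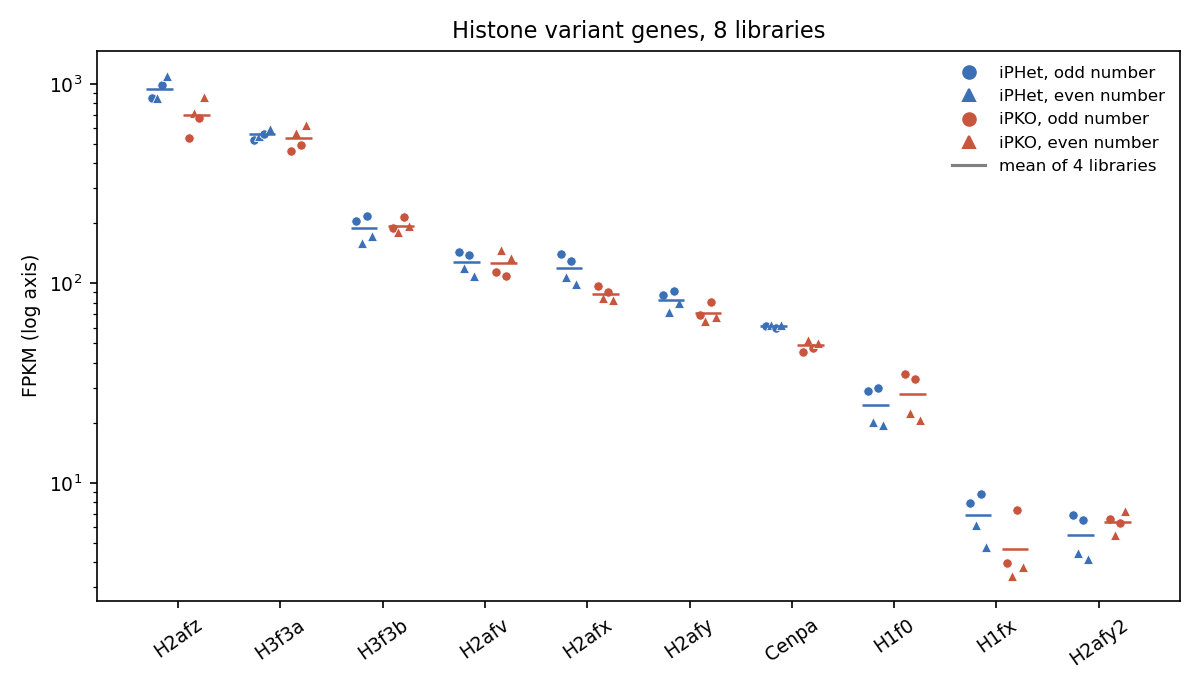
FPKM of the 10 histone variant genes in each of 8 libraries (log axis), iPHet in blue and iPKO in red, circles for odd and triangles for even library numbers, horizontal lines for the mean of 4 libraries. H2afz and H3f3a lead, and the iPKO points lie below all iPHet points for H2afx and Cenpa.

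Some of these levels carry a limit in the files. Each FPKM is deposited with a lower and an upper bound, and 36 of the 80 values of the 10 genes (45%) lay outside their own bounds, against 24.6% of all values of tested genes. H2afx, H3f3a, H1f0 and H1fx lay above their bounds in all 8 libraries, and H2afz in 4, iPHet 3 and 4 and iPKO 1 and 3. The ratio of FPKM to the midpoint of the bounds was 2.52 to 2.92 for H2afx, 1.86 to 1.99 for H3f3a, 2.80 to 3.38 for H1fx, 1.16 to 1.22 for H1f0 and 0.991 to 1.76 for H2afz. For H2afv, H2afy, H2afy2, H3f3b and Cenpa it stayed between 0.998 and 1.06. With midpoints in place of FPKM, H2afx averaged 44.1 in iPHet and 31.8 in iPKO, below Cenpa. How the program set these bounds is not given in the sources used here.

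**Figure D2:**
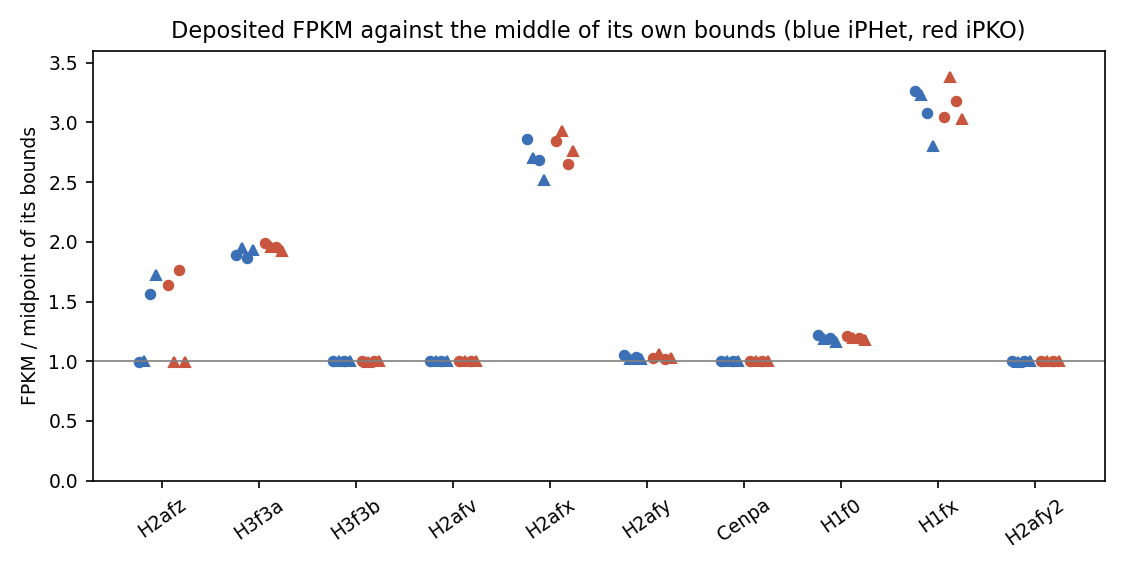
Ratio of the deposited FPKM to the midpoint of its own lower and upper bound, for each gene and library, iPHet in blue and iPKO in red. The ratio is near 1 for 5 genes, above 2.5 for H2afx and H1fx, and spread from 0.991 to 1.76 for H2afz.

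Across the 10 genes, 2 were lower in iPKO at a limma adjusted p under 0.05 (Benjamini-Hochberg over all tested genes), Cenpa and H2afx, and none was higher. Of all 12462 tested genes, 9.53% were called lower and 6.3% higher. At an unadjusted p under 0.05, 3 of the 10 genes passed, against 3921 of 12462. The median log2 difference was -0.14 for the 10 genes and -0.04 for all tested genes, and 7 of 10 lay below 0 (70%) against 56.6% of all tested genes. Genes with no overlap between the genotypes were 2 of 10 lower and none higher, where all tested genes gave 15% lower and 10.1% higher. Scaling moved the balance of all calls, from 39.8% higher as reported to 49.7% after quantile normalization and 54.2% after median-ratio scaling.

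**Figure D3:**
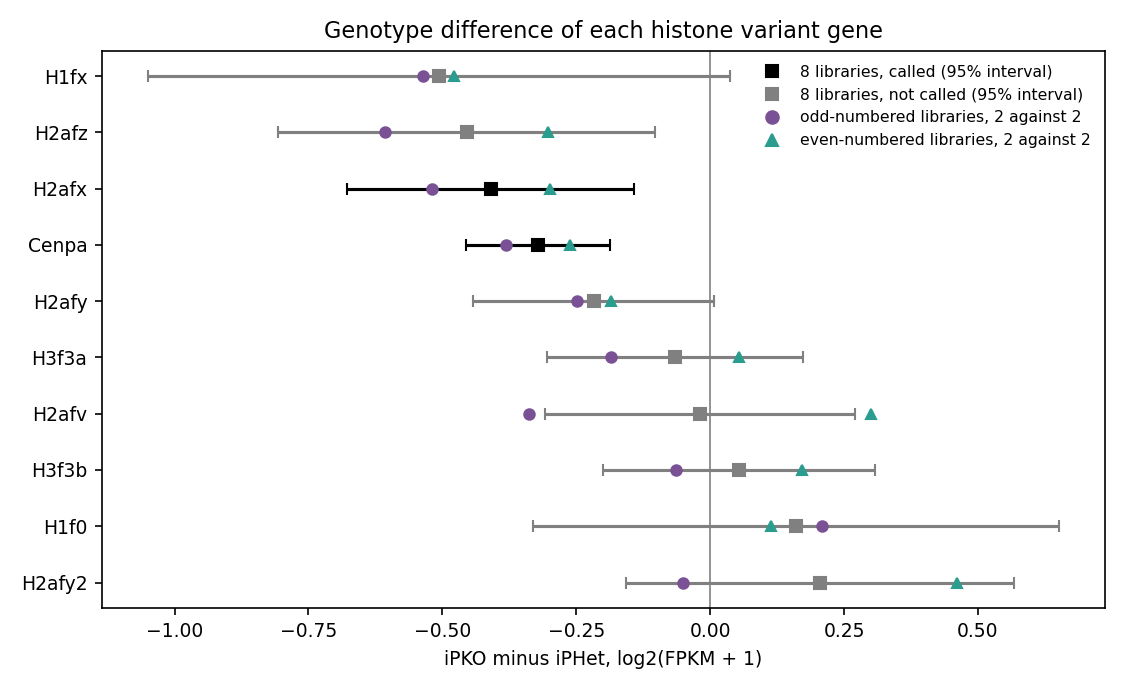
Difference of each gene between iPKO and iPHet in log2(FPKM + 1), squares with 95% intervals from limma over 8 libraries (black where called, grey where not), circles for the odd-numbered and triangles for the even-numbered libraries. H2afx and Cenpa are black, with odd and even values on the same side of 0, and H2afv has its circle at -0.34 and its triangle at 0.30.

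Cenpa encodes CENP-A, the H3 variant of centromeric nucleosomes, and had the smallest spread of the 10 in iPHet. The gene (ENSMUSG00000029177) lies on chromosome 5 from 30666777 to 30674827, plus strand. Its FPKM was 61.3, 61.9, 60.02 and 61.5 in iPHet libraries 1 to 4 and 45.3, 52.2, 47.3 and 50.4 in iPKO. All 4 iPKO libraries lay below all 4 iPHet libraries. The mean fell from 61.2 ± 0.811 to 48.8 ± 3.08 FPKM (SD, n = 4), which was 20.2% lower, and the log2 value fell by 0.32 (SE 0.06, 95% interval -0.46 to -0.19, limma adjusted p = 0.0101). By exact permutation, two-sided, p was 0.0286, the lowest value possible with 4 libraries a side. Libraries 1 and 3 gave a log2 difference of -0.38, and libraries 2 and 4 gave -0.26. In bulk RNA, fewer cells that express a gene and less RNA per cell cannot be told apart. The call was kept when any single library was left out (limma adjusted p 0.0153 to 0.0322), but not with an estimated correlation within pairs (limma adjusted p = 0.206) or with paired libraries averaged (limma adjusted p = 0.591). Prmt5 itself was not called with paired libraries averaged (limma adjusted p = 0.191), so a call lost in that fit, of Cenpa or another gene, decides nothing.

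H2afx encodes H2AX, the H2A variant phosphorylated at DNA double-strand breaks. The gene (ENSMUSG00000049932) has a single exon on chromosome 9 from 44334715 to 44336071, plus strand. Its FPKM was 140.3, 107, 130.1 and 99.7 in iPHet libraries 1 to 4 and 97.5, 84.7, 90.4 and 82.9 in iPKO. The groups did not overlap, and the odd-numbered libraries were the higher of each genotype. The mean fell from 119 ± 19.1 to 88.9 ± 6.58 FPKM (SD, n = 4), 1.34-fold lower, and the log2 value fell by 0.41 (SE 0.12, 95% interval -0.68 to -0.14, limma adjusted p = 0.0493). The exact two-sided permutation p was again 0.0286. Libraries 1 and 3 gave a difference of -0.52 and libraries 2 and 4 one of -0.30. The call was near the threshold: leaving out any library other than iPHet 4 ended it, with limma adjusted p between 0.0620 and 0.113, and without iPHet 4 the value was 0.0356. The limma adjusted p was 0.0540 after median-ratio scaling, 0.1 after quantile normalization and 0.0736 with no filter on low values. It was 0.355 with an estimated correlation within pairs, a fit in which Prmt5 stayed called, and 0.612 with paired libraries averaged. H2afx has 22 near copies at 90% identity over at least 200 bases, of which 2 reached 1 FPKM. The 22 together had a summed mean of 22.6 FPKM, so the level of H2afx is uncertain.

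Of the 2 H2A.Z genes, neither was called with all 8 libraries. H2afz encodes H2A.Z.1 and lies on chromosome 3 from 137864487 to 137866922, plus strand. Its FPKM was 849, 844, 992 and 1097 in iPHet and 538, 712, 674 and 855 in iPKO, with iPKO 4 above the 2 lowest iPHet libraries. The mean was 945 ± 122 and 695 ± 130 FPKM (SD, n = 4), a log2 difference of -0.45 (SE 0.15, 95% interval -0.81 to -0.10) that missed the threshold (limma adjusted p = 0.0813). With the replicate number as a block, which takes closely alike libraries as separate, the limma adjusted p was 0.0218 and may be too small. Without iPKO 4 it was 0.0491. From the midpoints of the bounds the error was larger, with means of 743 and 572, a log2 difference of -0.48 (SE 0.31) and limma adjusted p = 0.32.

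H2afv encodes H2A.Z.2 and lies on chromosome 11 from 6427229 to 6444443, minus strand. Its FPKM was 143, 119, 139 and 108 in iPHet and 114, 147, 109 and 133.5 in iPKO. In iPHet the odd-numbered libraries were the higher, and in iPKO the even-numbered. The mean was 127 ± 16.6 and 126 ± 17.6 FPKM (SD, n = 4), a log2 difference of -0.02 (95% interval -0.31 to 0.27, limma adjusted p = 0.936). Within the odd-numbered libraries the difference was -0.34 and within the even-numbered 0.30, with the 2 genotypes apart in each. Such opposite separation was seen in 1 of the 10 genes and in 16.5% of all tested genes.

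Neither H3.3 gene was called. H3f3a (chromosome 1 from 180800832 to 180813943, minus strand) and H3f3b (chromosome 11 from 116021912 to 116027962, minus strand) are known to encode the same protein. H3f3a had 523, 549.5, 563 and 594 FPKM in iPHet and 461, 569, 494 and 618 in iPKO. Its log2 difference was -0.07 (95% interval -0.30 to 0.17, limma adjusted p = 0.711). In H3f3a the iPKO libraries spread more widely than the iPHet libraries and enclosed them. H3f3b had 204, 160, 218 and 172 FPKM in iPHet and 190, 180, 215 and 194 in iPKO, a log2 difference of 0.05 (95% interval -0.20 to 0.31, limma adjusted p = 0.781). H3f3a overlaps the antisense gene Gm17275 over 6916 bases, which averaged 39.7 FPKM, and has 41 near copies, 40 of them pseudogenes. Strand is not given in the sources used here, so these reads cannot be told apart.

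The macroH2A genes differed in level by more than 10-fold. H2afy, macroH2A1 (chromosome 13 from 56073619 to 56136361, minus strand), had 87.2, 72.0, 91.7 and 79.7 FPKM in iPHet and 69.5, 65.0, 81.1 and 68.0 in iPKO. The groups overlapped over 8 libraries but were apart within the odd-numbered and within the even-numbered. The log2 difference was -0.22 (SE 0.10, 95% interval -0.44 to 0.01, limma adjusted p = 0.171), and 0.0275 with the replicate number as a block. H2afy2, macroH2A2 (chromosome 10 from 61738665 to 61784147, minus strand), had 6.89, 4.45, 6.51 and 4.16 FPKM in iPHet and 6.59, 5.47, 6.27 and 7.24 in iPKO. Its difference was 0.21 (95% interval -0.16 to 0.57, limma adjusted p = 0.418), from -0.05 in the odd-numbered to 0.46 in the even-numbered libraries. The gene overlaps the antisense gene Aifm2 over 596 bases. Aifm2 averaged 5.75 FPKM, with a log2 difference of 0.49 (limma adjusted p = 0.212). As strand is not given, reads of H2afy2 and Aifm2 cannot be told apart there, which limits the macroH2A share too.

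The linker histone genes both have 1 exon. H1f0, H1.0 (chromosome 15 from 79028212 to 79030498, plus strand), had 28.9, 20.1, 29.8 and 19.5 FPKM in iPHet and 35.03, 22.5, 33.1 and 20.6 in iPKO. The gap between odd and even numbers was wider than that between genotypes, and iPKO was above iPHet within the odd-numbered and within the even-numbered libraries. The log2 difference was 0.16 (95% interval -0.33 to 0.65, limma adjusted p = 0.656). H1fx, H1.X (chromosome 6 from 87980422 to 87981482, minus strand), had 7.90, 6.14, 8.80 and 4.76 FPKM in iPHet and 3.99, 3.42, 7.33 and 3.79 in iPKO. Its difference was -0.51 (SE 0.24, 95% interval -1.05 to 0.04, limma adjusted p = 0.186), and 0.0437 with the replicate number as a block. The library iPKO 3 stood apart from the other 3, and without it the log2 difference was -0.71 (limma adjusted p = 0.0507). H1fx overlaps the antisense gene Gm5577 over 600 bases, which averaged 1.29 FPKM.

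Taking the library number into account changed which genes were called. With the replicate block 5 of the 10 genes were called lower, Cenpa, H2afx, H2afz, H2afy and H1fx, where 16.6% of all tested genes were. The block takes libraries 1 and 3, and 2 and 4, as separate although they lay close, so its p-values may be too small. Within both the odd-numbered and the even-numbered libraries, H2afx, H2afy, H1fx and Cenpa lay apart and lower in iPKO, 4 of 10 genes, against 25.1% of all tested genes, and H1f0 lay apart and higher, 1 of 10, against 17.4%. With libraries 1 and 3, and 2 and 4, averaged, none of the 10 was called and 0.016% of all tested genes were called lower. An odd/even term added to that fit gave none of the 10 and 0.016%, and the same fit on protein-coding genes alone gave none and 1.05%. Prmt5 itself lost its call with pair averages (limma adjusted p = 0.191) and with the odd/even term (limma adjusted p = 0.0809). Calls lost in these fits over all tested genes therefore cannot show whether a gene differs. Prmt5 stayed called with the odd/even term on protein-coding genes alone and with an estimated correlation within pairs.

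Relative use within each paralog pair was taken as the percent of the pair's summed FPKM, which needs no scaling between libraries. H1f0 made up 78.2 ± 1.69% of H1f0 and H1fx in iPHet and 85.7 ± 3.37% in iPKO (SD, n = 4), with ranges of 76.6 to 80.4% and 81.9 to 89.8% that did not overlap. The difference was 7.53 points over all libraries, 7.96 from libraries 1 and 3, and 7.10 from libraries 2 and 4. The exact two-sided permutation p was 0.0286, and 0.114 after adjustment over the 4 pairs. H2afz made up 88.0 ± 2.26% of the H2A.Z pair in iPHet and 84.5 ± 2.09% in iPKO (exact permutation p = 0.0857, adjusted 0.114). H2afy made up 93.8 ± 1.02% of the macroH2A pair and 91.7 ± 1.07% (exact permutation p = 0.0571, adjusted 0.114). H3f3a made up 74.8 ± 3.19% of the H3.3 pair and 73.2 ± 3.36% (exact permutation p = 0.514). No pair passed the adjusted threshold. An exact permutation p of 0.0286 is the lowest possible with 4 libraries a side. Reached by 1 pair alone, it adjusts to 0.114 over the 4 pairs, so the miss decides nothing about that pair. The shares, save that of macroH2A, rest on FPKM values that left their own bounds to unlike extents within a pair. FPKM over midpoint was 2.80 to 3.38 for H1fx and 1.16 to 1.22 for H1f0. For H3f3a it was 1.86 to 1.99, for H3f3b 0.998 to 1 and for H2afz 0.991 to 1.76. Midpoint means of H1f0 and H1fx were 20.6 and 2.22 in iPHet, and 23.3 and 1.47 in iPKO. Shares of midpoints were not tested, so the sizes given are uncertain.

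**Figure D4:**
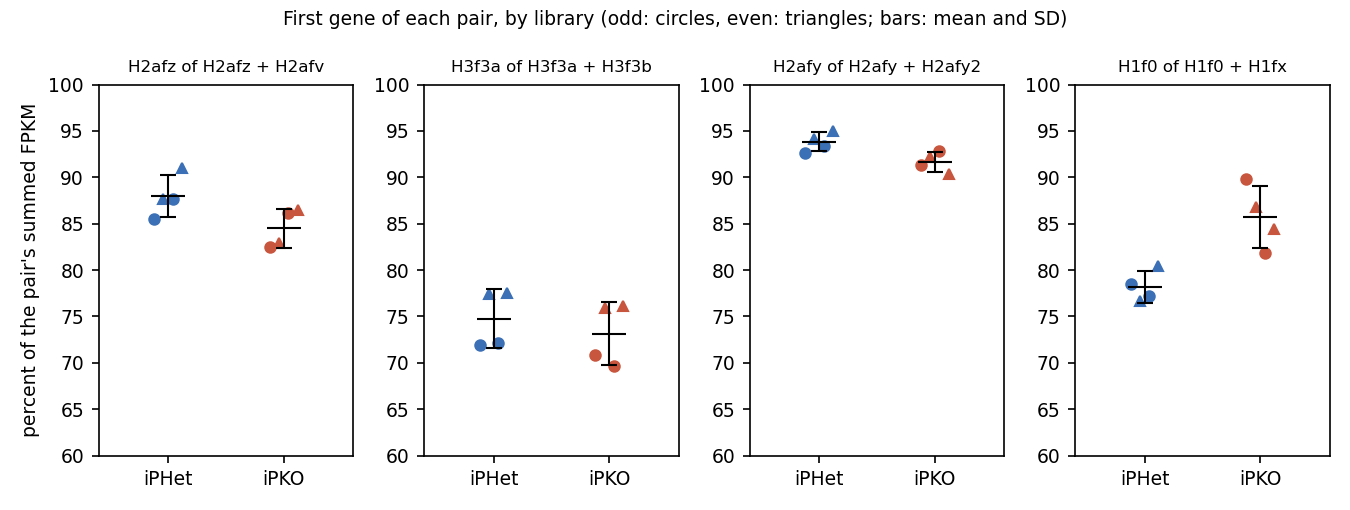
Percent of each pair's summed FPKM that came from the first gene, for each library (circles odd, triangles even), with the mean and SD of 4 libraries per genotype. Axes run from 60 to 100%, and the H1f0 share is the 1 pair whose genotypes do not overlap.

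The coding sequences of the pairs can be told apart by reads of 100 bases. Over the aligned coding bases, H2afz and H2afv were 79.1% identical with a longest shared run of 14 bases, and H3f3a and H3f3b 76.9% identical with a run of 23. H2afy and H2afy2 were 67.3% identical with a run of 16. The longest run shared by H1f0 and H1fx was 10 bases.

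The factors that place these variants were taken from lists of known partners. In the CENP-A list, 3 of 17 tested genes were called higher and 3 lower, where all tested genes gave 6.3% and 9.53%. With an estimated correlation within pairs no gene of any partner list was called, and the limma adjusted p was 0.0885 for Cenpo, 0.512 for Cenpm and 0.403 for Cenph. Cenpo, of the kinetochore network that binds CENP-A, fell from 10.7 to 6.97 FPKM (limma adjusted p = 0.00395) and Cenpm from 12.6 to 8.98 (limma adjusted p = 0.0196). Cenph rose from 21.9 to 28.8 (limma adjusted p = 0.00763). Cenpq rose from 5.97 to 7.91 FPKM and Cenpc1 fell from 12.2 to 10.2, both named after their values were seen. The list's median log2 difference was 0.01. Cenpm was no longer called when any of 4 libraries was left out, iPHet 2, 3 and 4 and iPKO 2, with limma adjusted p from 0.0513 to 0.0571.

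Of 10 H3.3 chaperone genes, 1 was called higher and none lower, with a median of -0.06. Cabin1, a subunit of the HIRA complex, rose from 12.3 ± 0.525 to 17.3 ± 0.841 FPKM (SD, n = 4, limma adjusted p = 0.00276). With an estimated correlation within pairs its limma adjusted p was 0.206, and with pair averages 0.486. Atrx averaged 111 and 143 FPKM (limma adjusted p = 0.059) and Ubn1 12.4 and 11.0 FPKM (limma adjusted p = 0.261). None of 14 H2A.Z exchange factors was called, with a median of -0.14. Anp32e, the chaperone that removes H2A.Z, averaged 71.8 and 48.6 FPKM (limma adjusted p = 0.122, and 0.004 with the replicate block). Actr6 averaged 4.18 and 5.11, and Yeats4 40.0 and 35.4 FPKM. Of 12 H2AX and macroH2A partners, Baz1b, the kinase of a tyrosine of H2AX, rose from 35.5 to 48.8 FPKM (limma adjusted p = 0.0327, and 0.197 with an estimated correlation), and no other was called. Leaving out any of 4 libraries ended that call, iPHet 1, iPHet 3, iPKO 2 and iPKO 4, with limma adjusted p from 0.0778 to 0.0788. Rnf168, a ubiquitin ligase acting on H2A, averaged 19.6 and 16.7 FPKM (limma adjusted p = 0.0581, and 0.0286 with the replicate block), and Prkdc, a kinase of H2AX, 4.70 and 5.40 FPKM (limma adjusted p = 0.149).

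**Figure D5:**
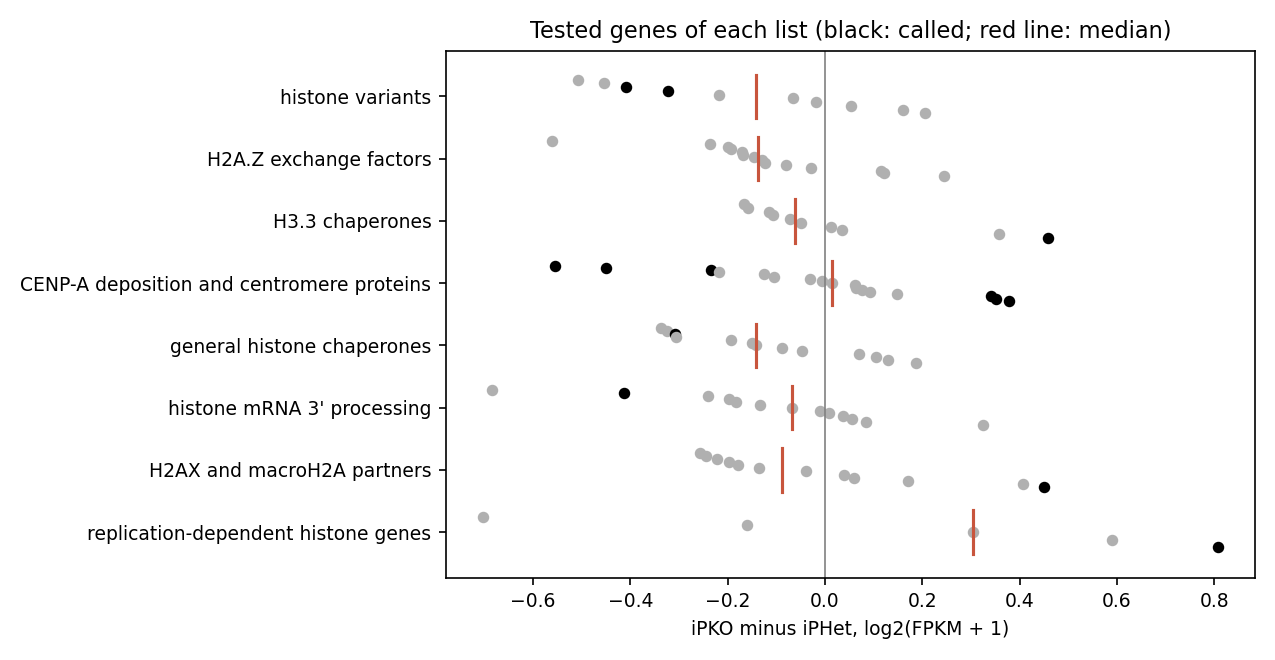
Difference between iPKO and iPHet in log2(FPKM + 1) of every tested gene in 8 lists, 1 list a row, black where called and grey where not, red lines for list medians. CENP-A and centromere genes hold black points on both sides of 0, and the H2A.Z exchange factors hold none.

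General histone chaperones had 1 of 13 called lower and none higher, Chaf1b, a subunit of the CAF-1 complex, which fell from 50.8 to 40.8 FPKM (limma adjusted p = 0.0227, and 0.389 with an estimated correlation). Any of 5 omissions ended that call, those of iPHet 2, iPHet 4, iPKO 1, iPKO 2 and iPKO 3, with limma adjusted p from 0.0585 to 0.0621. It was 0.0577 after quantile normalization and 0.0753 after median-ratio scaling. Npm1 averaged 915 and 740.2 FPKM (limma adjusted p = 0.184) and Chaf1a 20.8 and 18.0 FPKM (limma adjusted p = 0.195). Of 13 genes for 3′ processing and transcription of replication-dependent histone mRNA, 1 was called lower, Zfp473, the ZFP100 protein of the U7 particle, from 7.62 to 5.48 FPKM (limma adjusted p = 0.00784). The limma adjusted p of Zfp473 was 0.218 with an estimated correlation within pairs and 0.544 with pair averages. Lsm10, of the U7 core, averaged 11.3 and 6.82 FPKM (limma adjusted p = 0.0551, and 0.0336 with the replicate block) and Npat, the activator of these genes, 9.19 and 11.8 (limma adjusted p = 0.0518).

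Replication-dependent histone genes stood far lower than the variants. Of 67 in the files, 54 were below 1 FPKM in every library, 23 were at 0 in all libraries and 5 passed the filter. Their summed level was 27.7 to 50.2 FPKM in iPHet and 20.4 to 48.2 in iPKO, against 1560 to 2241 for the 10 variants. Which RNA the kit retained is not given in the sources used here, so low levels of mRNAs without a tail and their absence from the library cannot be told apart. The highest, Hist1h2ao, averaged 21.3 ± 7.998 and 13.3 ± 6.95 FPKM (SD, n = 4, limma adjusted p = 0.239). Hist1h2bc averaged 5.46 and 4.69 FPKM. Hist1h4i averaged 2.48 and 5.01 FPKM, with 8.56 and 7.69 in the even-numbered and 1.65 and 2.13 in the odd-numbered iPKO libraries. Hist1h1a averaged 0.277 and 1.21 FPKM (limma adjusted p = 0.0147, and 0.408 with an estimated correlation within pairs) and Hist1h3c 0.752 and 1.197 FPKM (limma adjusted p = 0.302). These genes passed the filter only through iPKO, where they were higher, so the call of Hist1h1a is given as a value and supports nothing. Among 12 other variant genes found in the files, 2 were tested and neither was called, H2afj at 4.30 and 4.06 FPKM and H3f3c at 2.41 and 1.86.

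The genes whose pattern over the 8 libraries was most like Cenpa, by root mean square difference of centred log2 values over 11175 protein-coding genes, were Pdia4 (0.0302, mean 59.7 and 46.6 FPKM) and Nutf2 (0.0379, 10.4 and 8.06 FPKM). For H2afx they were Tmem18 (0.037, 9.31 and 6.82 FPKM), whose limma adjusted p was 0.083, and 0.0189 with the replicate block, and Slc25a11 (0.0422, 46.0 and 33.2 FPKM). The measure is a description of these libraries.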

How the data were processed

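Libraries were made with an Illumina TruSeq kit from total RNA and read as pairs of 100 bases, per the labels' protocols. The authors deposited 1 FPKM value for each gene in each library, and its 2 bounds in the same unit, per the file headers. Per the submitters' processing notes, Trimmomatic was used and mm10 was the genome. Aligner, FPKM program, versions and strandedness were not given in the sources used here. Each file held 39013 rows for 38991 identifiers, and 96.2% of identifiers were in GENCODE M21.

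Testing covered 12462 genes that averaged 1 FPKM or more in iPHet or iPKO, with limma 3.58.1 in R 4.3.3 (tables read with the data.table package, version 1.17.8) on log2(FPKM + 1), with an intensity trend and Benjamini-Hochberg adjustment. Genes with adjusted p under 0.05 were called. Fold changes of low genes are understated on this scale. A fold is a ratio of mean FPKM. Shares of pairs were compared by exact permutation.

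Deviations from the genotype means correlated between libraries of the same number at 0.104, 0.162, 0.204 and 0.107, so the numbers were treated as pairs in an alternative. This pairing comes from the data, not from the labels.

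Members and lists were chosen with earlier results of these data known. Named genes were all members, Prmt5, up to 3 genes with the smallest p per list, up to 6 replication-dependent histone genes averaging 5 FPKM or more in iPHet or iPKO, and the 2 genes most like each called member. A called gene of the lists is not reported here by name. List symbols with no match in the files were H2al2, Hist3h3, Supt16h and Zfp100. Stem-loops, poly(A) signals and promoter motifs were searched with Python 3.11.15 and pandas 2.3.3, near copies with BLAST+ 2.17.0, and figures were drawn with matplotlib 3.10.9. Alternatives covered filters, pseudocount, scaling, gene type, replicate block, paired averages, each library left out, and midpoints of the bounds, the last chosen after seeing the data.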

Additional observations from a re-analysis of the deposited data

Results flagged for a closer look

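H1fx in iPKO 3 was 7.33 FPKM, farther from the other iPKO libraries (3.42 to 3.99 FPKM) than Dixon's 95% limit for 4 samples allows. It was the only such value among 28 groups of 4 tested, and chance flags about 1 in 20 groups. H1fx was not called with all libraries.

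The log2 difference of H2afv, iPKO minus iPHet, was -0.3386 from libraries 1 and 3 but 0.3004 from libraries 2 and 4, with the genotypes apart in each. The difference between odd and even numbers was not tested.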

How the results depend on the processing

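Of the 10 genes, 2 were called lower and none higher. The count lower was 1 with no filter on low values, with quantile normalization and with median-ratio scaling, 5 with the replicate block, and 0 with an estimated correlation within pairs, pair averages, pair averages with an odd/even term, and the latter on protein-coding genes. It was 4 from odd-numbered libraries alone, where 3434 of 12562 tested genes were called lower, and 1 to 2 with each library left out. The count higher was 1 from odd numbers, where 2266 of 12562 tested genes were called higher. It was 1 from even numbers, where 2177 of 12270 were. Over all tested genes, Prmt5 too was not called with pair averages, with or without the odd/even term.

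Over all genes, 785 higher and 1188 lower became 1355 and 2072 with the replicate block, 23 and 29 with an estimated correlation, 5 and 2 with pair averages, 4 and 2 with the odd/even term, and 81 and 117 on protein-coding genes. They were 2266 and 3434 from odd numbers, 2177 and 2755 from even numbers, and 522 to 591 and 742 to 861 with each library left out. Tested genes of the lists numbered 14 for H2A.Z exchange, 10 for H3.3 chaperones, 17 for CENP-A and 13 for general chaperones. They numbered 13 for 3′ processing, 12 for H2AX and macroH2A partners, 5 for replication-dependent genes and 2 for other variants. Of these listed genes 11 were called, where all tested genes gave 6.3% higher and 9.53% lower. The count was 22 with the replicate block, 49 from odd and 31 from even numbers, and 6 to 10 with each library left out. It was 0 with an estimated correlation and with each form of pair average.

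Some log2 differences turned direction, none of them called with all 8 libraries. H2afv was 0.07396 with quantile normalization, 0.0338 with median-ratio scaling, 0.3004 from even numbers and -0.09652 to 0.04681 with a library left out. H3f3a was 0.009168 with quantile normalization, 0.05326 from even numbers and -0.1377 to 0.00325 with a library left out. H3f3b was -0.06385 from odd numbers and -0.02065 to 0.127 with a library left out, and H2afy2 was -0.05134 from odd numbers, as was Hist1h4i at -0.4902. From even numbers H3f3c was 0.09208, H2afj 0.3395, Hist1h2ao 0.1929 and Hist1h2bc 0.2869, and H2afj ran from -0.1725 to 0.004235 with a library left out. The difference in the H2afy share was -0.9436 points from odd and -3.303 points from even numbers. The cause of these changes was not tested. Among the 10 genes the replicate block changed the calls of H2afz, H2afy and H1fx and no other. Depth is unknown and limits what the lowest genes can show.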
